A study of Mus musculus with 56 samples.

Results

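Insulin signalling in the liver is described here through 10 genes out of 52230 in the summed table: the receptor Insr, the adaptors Irs1 and Irs2, the regulatory subunit Pik3r1, the kinase Akt2, the transcription factors Foxo1 and Foxo3, and the read-out genes Igfbp1, Trib1 and Socs2. They are a list of names, genes of the pathway and of its transcriptional read-out, drawn up with earlier results of these data known, and the rule itself uses no measured value. All 10 passed the filter on low counts in each of the 13 comparisons made.

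Insulin binds the insulin receptor on hepatocytes, which phosphorylates the IRS adaptors, and these recruit phosphatidylinositol 3-kinase and through it activate AKT2. AKT2 phosphorylates FOXO1 and FOXO3 and keeps them out of the nucleus, so that genes which FOXO1 activates, such as Igfbp1 and Irs2, are repressed by insulin. Socs2 is best known as a gene induced by growth hormone, and it restrains the signal of the growth hormone receptor.

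The livers came from male mice of the GCKR-P446L-EMI-B6N line, 1 whole-body knock-in that exchanges proline (P) for leucine (L) at residue 446 of GKRP (gene Gckr), the inhibitor that holds glucokinase in the nucleus of hepatocytes. For 20 weeks every mouse, controls included, ate pellets with 45% of their energy as fat and drank water with 10% glucose and 5% fructose (HFHSD), and the PP and LL mice were 28 weeks old at the end. Without further treatment there were 9 PP mice (wild type), 8 PL and 10 LL mice. A glucokinase activator (GKA, 3 mg/kg, in the diet) was given to a further 10 PP, 8 PL and 10 LL mice. PP mouse 7 was removed as the authors did, which left 55 of 56 livers.

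Reads assigned to genes numbered between 5180136 and 8081370 per mouse (median 6548128). Each of the 5 hepatocyte markers was above 1 count per mega reads (CPM), with a sum between 66948 and 121110 CPM. Each of the 4 pancreas markers was at 0 in every liver, and the 3 muscle markers summed to at most 0.180 CPM. No marker of the 10 cell types looked at, among them Kupffer cell, stellate and endothelial markers, was a differentially expressed gene (DEG) in any comparison. This says little for markers under 1 CPM, which could hardly be called. These were all adipose, pancreas and muscle markers, Krt7, Krt19 and Epcam of bile duct, and Cd3e, Cd79a and Ms4a1 of lymphocytes. Red blood cell markers summed to between 231 and 2136 CPM. In whole liver, fewer cells of a type and less RNA per cell cannot be told apart, and the labels give no batch, litter or time of death.

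The promoters are shown first because 3 of the genes hold the letters TGTTTTG, the core of the insulin response sequence through which FOXO1 is known to act on Igfbp1. Of the 10 genes, 7 had an entry in the RefSeq promoter table (GRCm38.p6, 11 promoters), namely Irs1, Irs2, Akt2, Pik3r1, Foxo1, Foxo3 and Igfbp1. On either strand, TGTTTTG was found in the 250 bases before the start of Igfbp1, Irs1 and Irs2, and in 5.56% of all 32851 promoters. The second FOXO core searched, TGTTTAC, was in none of the 7 genes and in 3.17% of all promoters. In the stretches below, capitals mark TGTTTTG or its reverse complement CAAAACA and, in Irs1 and Irs2, the E-box CACGTG, which 6.02% of all promoters hold. In Irs1 the E-box and the first TGTTTTG overlap, and in Irs2 they are separated by a single unmarked t. A match is a description of the letters only.
Igfbp1, chr11:7197627-7197746, plus strand: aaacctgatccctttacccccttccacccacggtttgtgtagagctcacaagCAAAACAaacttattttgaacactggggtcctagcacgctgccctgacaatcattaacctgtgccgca
Irs2, chr8:11008930-11008996, minus strand: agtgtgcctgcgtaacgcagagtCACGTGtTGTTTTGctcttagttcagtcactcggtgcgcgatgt
Irs1, chr1:82291440-82291580, minus strand: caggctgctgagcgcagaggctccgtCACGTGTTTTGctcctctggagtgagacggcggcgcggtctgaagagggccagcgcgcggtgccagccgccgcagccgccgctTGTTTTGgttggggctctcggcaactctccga

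None of the 10 genes was a DEG by the quasi-likelihood test of edgeR in any of the 13 comparisons. A DEG needed an adjusted p below 0.05 and, for pairs of groups and for GKA over the genotypes, also a fold of 1.3 or more, or of 0.7 or less. The largest log2 fold change between a pair of groups was that of Igfbp1, the secreted binding protein of insulin-like growth factors, which had 32.9 ± 22.6 CPM in PP (SD, n = 9) and 10.8 ± 4.59 CPM in PL (n = 8). In every pair of groups and for every one of the 10 genes, the values of the groups overlapped. The share of all genes with such overlap is not given here, so the overlap cannot be read as particular to these 10. The panels of CPM by mouse show this overlap.

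**Figure D1:**
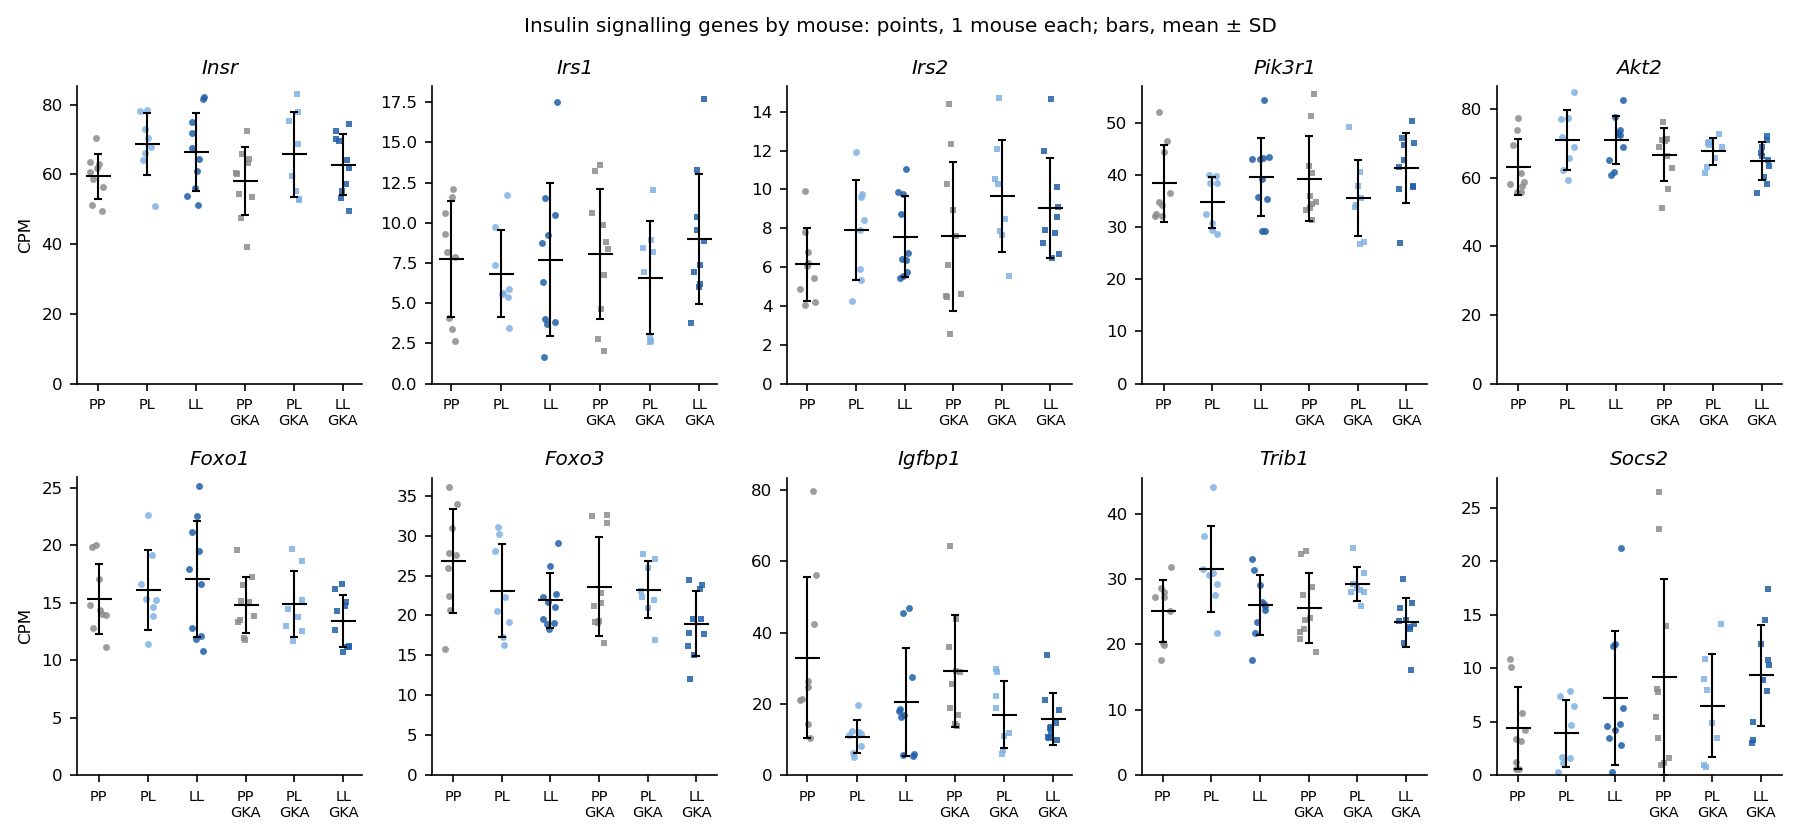
CPM of the 10 genes in each of the 55 livers (vertical axes, linear and from 0) by genotype without GKA (circles) and with GKA (squares); black bars are the mean ± SD. Igfbp1 lay between 5.05 and 79.8 CPM and Socs2 between 0.255 and 26.5 CPM, while Akt2 kept between 51.3 and 84.98 CPM.

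On the TPM scale, which corrects for transcript length and so allows levels to be set side by side between genes, Akt2 had the highest mean level over the 55 livers, 27.6 ± 10.8 TPM (SD). Igfbp1 followed with 11.4 ± 8.56 TPM, then Insr with 6.41 ± 2.91, Pik3r1 with 5.93 ± 3.06, Socs2 with 3.94 ± 4.07 and Trib1 with 3.82 ± 1.35 TPM. Foxo3 had 2.14 ± 0.813 TPM and Foxo1 1.00 ± 0.318 TPM. The adaptors had the lowest levels, with 0.759 ± 0.360 TPM for Irs2 and 0.512 ± 0.329 TPM for Irs1. Of the neighbours in this order, Akt2 and Igfbp1, Trib1 and Foxo3, and Foxo3 and Foxo1 differed by more than the larger of their SDs, and the others by less. The lead of Akt2 rests in part on transcripts with few reads. Akt2-206, for one, held on average 2.66% of the Akt2 reads but 19.9% of the Akt2 TPM. Irs1 was read from only 9 to 111 reads per mouse and Irs2 from 16 to 101, against 241 to 592 for Insr and 283 to 645 for Akt2.

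The spread between mice of a group differed widely among the genes. On the CPM scale, the pooled SD within groups was 10.4% of the mean for Akt2, 15.3% for Insr, 17.9% for Trib1 and 18.6% for Pik3r1. It was 21.9% for Foxo1, 22.2% for Foxo3, 34.4% for Irs2, 50.2% for Irs1, 65.7% for Igfbp1 and 84.0% for Socs2. The spread between mice was thus narrower for each upstream gene than for the read-out genes Igfbp1 and Socs2. Trib1, also a read-out gene, had a narrower spread than Irs1, Irs2, Pik3r1, Foxo1 and Foxo3.

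The first question was what 2 copies of 446L do. For LL against PP in mice not given GKA, none of the 10 genes was called, where the share called among all 10537 genes tested was 0.0854%. At an unadjusted p below 0.05, 2 of the 10 passed, Akt2 (higher) and Foxo3 (lower), beside 11.8% of all genes. The median log2 fold change was 0.10 for the 10 genes and 0.01 for all genes tested. With GKA, 0 of 10 genes were called for LL against PP (0.239% of all genes), and 2 of 10, Igfbp1 and Foxo3, both lower, passed at the unadjusted threshold (10.4% of all genes). The median was then -0.01 for the 10 genes and 0.00 for all genes.

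Heterozygous mice were compared in the same way. For PL against PP without GKA, 0 of 10 genes were called (0.151% of all genes) and 3 of 10 passed unadjusted, Igfbp1 (lower), Insr and Trib1 (both higher), beside 10.1% of all genes. With GKA, 0 of 10 were called (0% of all genes) and Igfbp1 alone passed unadjusted, beside 8.19% of all genes. For LL against PL, 0 of 10 were called without GKA (0.00942%) and with GKA (0%). At the unadjusted threshold, 2 of 10 passed without GKA, Igfbp1 (higher in LL) and Trib1 (lower), beside 4.58% of all genes, and 2 of 10 with GKA, Trib1 and Foxo3, both lower in LL, beside 8.6%. The comparisons of PL and of LL with PP share the PP mice and so are not independent.

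The fits over all 6 groups gave the same outcome. Any difference among the groups was called in 0 of 10 genes and in 1.88% of 11477 genes, and Igfbp1, Trib1 and Foxo3 passed at the unadjusted threshold, beside 12.7% of all genes. A trend with the number of 446L copies was called in 0 of 10 genes and in 3.53% of all genes, and Igfbp1 and Foxo3, both lower per copy, passed unadjusted, beside 15.5% of all genes. By DESeq2, the tool of the study, 0 of 10 genes were called in 10 of the 13 comparisons and 1 in each of the other 3: Igfbp1 for PL against PP without GKA and for any difference among the groups, and Foxo3 for the number of copies.

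**Figure D2:**
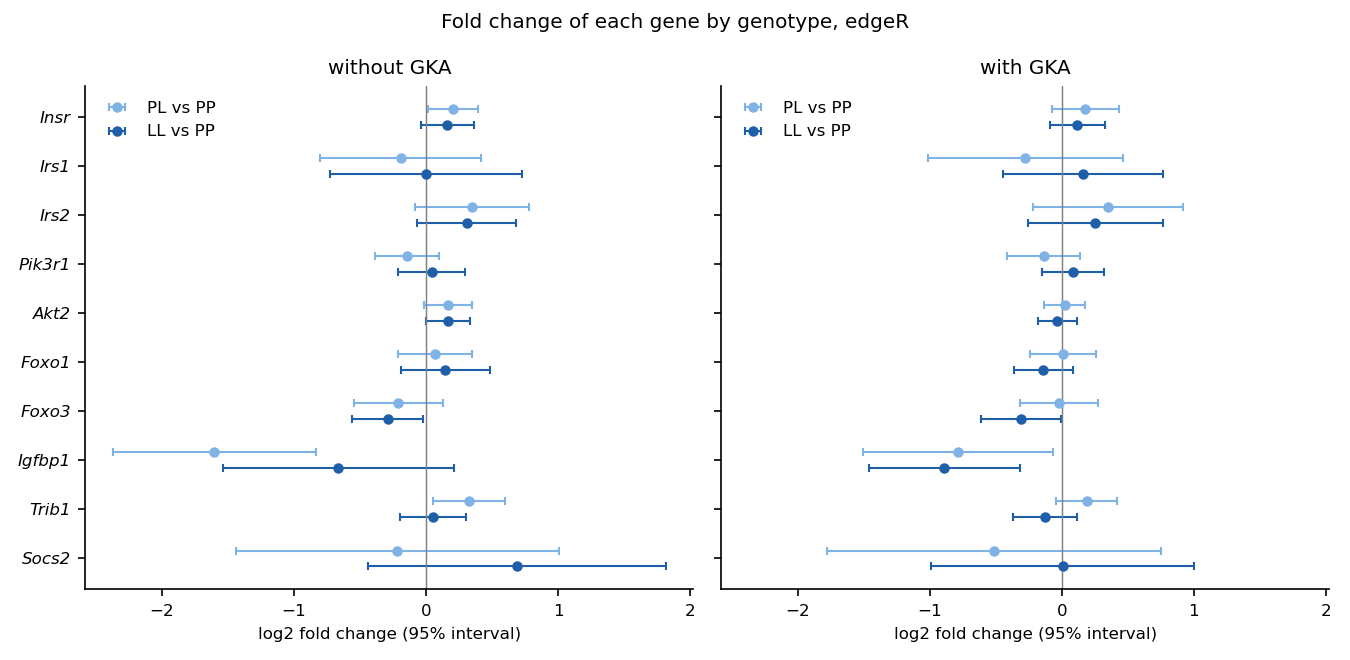
Log2 fold change (horizontal axis) with its 95% interval for each gene, by PL (light blue) and LL (dark blue) genotype against PP, without GKA (left) and with GKA (right). Igfbp1 lay on the negative side in all 4 comparisons, from -0.66 to -1.60, and the intervals of Irs1, Igfbp1 and Socs2 were the widest.

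Insr, the receptor itself (chromosome 8, 3172061 to 3329647, GRCm39), was between 49.4 and 70.4 CPM in PP, with a median of 60.7. In PL it was between 51.0 and 78.6 (median 69.1), and in LL between 51.3 and 82.2 (median 66.0). Among mice on GKA it was between 39.3 and 72.3 CPM in PP (median 60.2), between 52.6 and 83.1 in PL (median 64.1) and between 49.6 and 74.4 in LL (median 62.9). Both with and without GKA, PL and LL mice thus had a higher median than PP mice within wide overlap. By PL genotype without GKA the log2 fold change was 0.21 (SE 0.09, edgeR unadjusted p 0.0324, adjusted 0.446), with 7 of 8 PL mice above the PP mean. By LL genotype it was 0.16 without GKA (95% interval -0.04 to 0.36, adjusted p 0.55) and 0.12 with GKA (-0.09 to 0.33, adjusted p 0.771).

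Irs1 (chromosome 1, 82210822 to 82269338), the adaptor that couples the receptor to phosphatidylinositol 3-kinase in many tissues, was between 2.62 and 12.1 CPM in PP (median 8.17), between 3.44 and 11.7 in PL (median 5.76) and between 1.66 and 17.5 in LL (median 7.54). With GKA the ranges were 2.04 to 13.6 CPM in PP (median 8.58), 2.56 to 12.1 in PL (median 7.55) and 3.78 to 17.7 in LL (median 8.12). The mean of LL without GKA, 7.71 ± 4.77 CPM (n = 10), was within 1 SD of that of PP, 7.75 ± 3.59 (n = 9). For LL against PP the 95% interval of the log2 fold change ran from -0.72 to 0.72, and with the clock component as a covariate the value itself was 0.82 (adjusted p 0.209).

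Irs2 (chromosome 8, 11034681 to 11059499), the second adaptor and a gene that FOXO1 activates in fasting, had its lowest mean in PP, 6.14 ± 1.86 CPM (n = 9; lowest 4.03, median 6.06, highest 9.92). PL mice had 7.89 ± 2.57 CPM (4.28, 8.16 and 11.9) and LL mice 7.57 ± 2.09 CPM (5.43, 6.59 and 11.1). The values with GKA were 7.58 ± 3.86 CPM for PP (2.54, 6.86 and 14.4), 9.63 ± 2.88 for PL (5.53, 9.37 and 14.7) and 9.04 ± 2.58 for LL (6.47, 8.23 and 14.7). In each genotype the mean was higher with GKA, by less than the larger of the 2 SDs. The effect of GKA over the 3 genotypes was a log2 fold change of 0.29 (SE 0.13, edgeR unadjusted p 0.0307, adjusted 0.881). By LL genotype the log2 fold change was 0.31 without GKA (adjusted p 0.534) and 0.25 with GKA (adjusted p 0.811).

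Pik3r1 (chromosome 13, 101817071 to 101904725) encodes the regulatory subunits of phosphatidylinositol 3-kinase that bind the adaptors. It was between 32.1 and 52.1 CPM in PP (median 34.9), between 28.6 and 40.0 in PL (median 35.5) and between 29.2 and 54.3 in LL (median 41.2). Under GKA it was between 31.4 and 55.7 CPM in PP (median 35.4), between 26.7 and 49.2 in PL (median 35.0) and between 27.1 and 50.4 in LL (median 42.2). LL had the highest median in both arms. LL differed from PL by 0.17 without GKA and by 0.21 with GKA on the log2 scale, neither past even the unadjusted threshold (edgeR unadjusted p 0.143 and 0.0971).

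Akt2 (chromosome 7, 27284378 to 27340262), the AKT isoform that carries the insulin signal in liver, was the least variable of the 10 genes. It had 63.1 ± 8.19 CPM in PP (n = 9; lowest 55.8, median 58.7, highest 77.3), 70.9 ± 8.63 in the PL mice (59.3, 70.3 and 84.98) and 70.8 ± 6.94 in the LL mice (60.7, 72.6 and 82.7). With GKA the means were 66.6 ± 7.66 CPM in PP (lowest 51.3, median 69.9, highest 76.2), 67.7 ± 3.93 in PL (61.4, 69.2 and 72.8) and 64.8 ± 5.48 in LL (55.5, 65.7 and 72.1). PP was the lowest group without GKA and LL with GKA, and all ranges overlapped. The difference between PP and LL without GKA, a log2 fold change of 0.17 (SE 0.08, edgeR unadjusted p 0.0489, adjusted 0.418), was below the fold threshold. It was -0.03 with GKA (95% interval -0.18 to 0.11), and the test of the interaction of GKA with genotype gave an unadjusted p of 0.0596 (adjusted 0.881).

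Foxo1 (chromosome 3, 52175757 to 52260642), the main FOXO factor of fasting glucose production, was between 11.1 and 20.1 CPM in PP (median 14.3), between 11.4 and 22.6 in PL (median 15.3) and between 10.8 and 25.2 in LL (median 17.3). With GKA it was between 11.7 and 19.6 CPM in PP (median 14.5), between 11.7 and 19.7 in PL (median 14.1) and between 10.7 and 16.6 in LL (median 13.5). The LL mice therefore had the highest median of the groups without GKA and the lowest with GKA. Within LL, the log2 fold change by GKA was -0.33 (SE 0.15, edgeR unadjusted p 0.0358, adjusted 0.795), and each of the 10 LL mice with GKA was below the mean of LL without GKA. Over the 3 genotypes it was -0.17 (unadjusted p 0.0382, adjusted 0.928). Whether the effect of GKA differed between LL and PP was tested directly, with an interaction of -0.29 (95% interval -0.68 to 0.11, adjusted p 0.93).

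Foxo3 (chromosome 10, 42057837 to 42154007), a second FOXO factor under AKT control, had 26.8 ± 6.48 CPM in PP (n = 9; lowest 15.8, median 27.5, highest 36.1). PL mice had 23.1 ± 5.88 CPM (16.3, 21.5 and 31.1) and LL mice 21.9 ± 3.44 CPM (18.4, 21.4 and 29.1). Under GKA, PP mice had 23.6 ± 6.16 CPM (16.6, 21.4 and 32.6), PL mice 23.2 ± 3.56 (16.9, 22.7 and 27.7) and LL mice 19.0 ± 4.07 (12.0, 18.7 and 24.4). The lowest mean was that of LL in both arms, and 9 of 10 LL mice without GKA and 8 of 10 with GKA were below the PP mean of their arm. By LL genotype the log2 fold change was -0.29 without GKA (SE 0.13, edgeR unadjusted p 0.0372, adjusted 0.38) and -0.31 with GKA (SE 0.15, unadjusted p 0.0432, adjusted 0.469). These 2 comparisons share no mice. Per copy of 446L over all groups it was -0.15 (SE 0.05, unadjusted p 0.0031, adjusted 0.0707).

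Igfbp1 (chromosome 11, 7147651 to 7152546) is a classical gene that insulin represses through FOXO1. In PP it was between 10.3 and 79.8 CPM, with a median of 24.8. In PL it was between 5.05 and 19.8 CPM (median 11.3), and in LL between 5.35 and 46.9 (median 17.4). All 8 PL mice were below the PP mean, yet the ranges of PL and PP still overlapped between 10.3 and 19.8 CPM. In the GKA arm it was between 13.8 and 64.4 CPM in PP (median 27.3), between 5.97 and 29.7 in PL (median 15.4) and between 9.81 and 33.7 in LL (median 13.3). PP had the highest median of its arm both times.

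For Igfbp1 the log2 fold change by PL genotype without GKA was -1.60 (SE 0.37, 95% interval -2.37 to -0.83), with an edgeR unadjusted p of 0.000329 and an adjusted p of 0.0779. The value was called by DESeq2 (-1.61, adjusted p 0.00774) and with PP mouse 7 kept (-1.71, adjusted p 0.0482). It was also called without PP mouse 4 (adjusted p 0.041) and without PP mouse 6 (adjusted p 0.0498), and in none of the other 15 fits that left out 1 mouse. By PL genotype with GKA it was -0.79 (SE 0.34, unadjusted p 0.0329, adjusted 0.554). By LL genotype it was -0.66 without GKA (SE 0.42, unadjusted p 0.131, adjusted 0.577), between -0.88 without LL mouse 44 and -0.38 without PP mouse 3, and -0.89 with GKA (SE 0.28, unadjusted p 0.00378, adjusted 0.209), where 9 of 10 LL mice were below the PP mean. LL without GKA exceeded PL by 0.93 (SE 0.40, unadjusted p 0.031, adjusted 0.968). Per copy of 446L it was -0.39 (SE 0.13, adjusted p 0.0933), and the test of any difference among the 6 groups gave an adjusted p of 0.0549 by edgeR and 0.0159 by DESeq2.

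Trib1 (chromosome 15, 59520147 to 59528948) encodes a pseudokinase that brings the ubiquitin ligase COP1 to the transcription factor C/EBPα. It was between 17.6 and 31.8 CPM in PP (median 27.2), between 21.7 and 44.1 in PL (median 30.7) and between 17.6 and 33.1 in LL (median 26.0). With GKA it was between 18.8 and 34.3 CPM in PP (median 23.9), between 25.8 and 34.7 in PL (median 28.4) and between 16.1 and 30.0 in LL (median 23.4). PL had the highest median in both arms. The log2 fold change by PL genotype against PP was 0.33 without GKA (SE 0.13, edgeR unadjusted p 0.0212, adjusted 0.39) and 0.19 with GKA (unadjusted p 0.106, adjusted 0.721). LL was lower than PL by -0.29 without GKA (unadjusted p 0.0327, adjusted 0.972) and by -0.32 with GKA (SE 0.09, unadjusted p 0.00238, adjusted 0.29), and each time 9 of 10 LL mice lay under the mean of PL.

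Socs2 (chromosome 10, 95219523 to 95253929) varied most from mouse to mouse, over a 104-fold range between the lowest and highest liver, and rested on 2 to 186 reads. Without GKA it was between 0.523 and 10.9 CPM in PP (median 3.38), between 0.255 and 7.89 in PL (median 3.19) and between 0.317 and 21.3 in LL (median 4.70). With GKA it was between 0.954 and 26.5 CPM in PP (median 6.57), between 0.744 and 14.1 in PL (median 6.45) and between 3.04 and 17.5 in LL (median 9.60). The median was higher with GKA in each genotype, but every range held the median of the other arm. The effect of GKA over the genotypes was 0.72 on the log2 scale (SE 0.33, edgeR unadjusted p 0.0314, adjusted 0.881), with 1.06 for PP mice, 0.77 for PL mice and 0.39 for LL mice, none past the unadjusted threshold. With GKA, LL differed from PP by 0.01 on the log2 scale, with a 95% interval from -0.99 to 1.00.

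GKA itself was compared with no GKA within each genotype, and edgeR in fits of the 2 groups called none of the 10 genes and none of the others (0% of all genes tested in PP, PL and LL). DESeq2 called 0, 1 and 6 of all genes in PP, PL and LL, and edgeR with all 6 groups in 1 fit called 1 in PP. At the unadjusted threshold, 0 of 10 genes passed in PP (3.56% of all genes), 0 of 10 in PL (3.18%) and 1 of 10, Foxo1, in LL (6.15%). Over the 3 genotypes, 0 of 10 were called (0% of all genes) and Irs2, Socs2 and Foxo1 passed unadjusted, beside 5.28% of all genes. The interaction of GKA with genotype was called in 0 of 10 genes (0% of 11193 genes), with 0 of 10 past the unadjusted threshold, beside 5.75% of all genes. DESeq2 called 0 of the 10 in each of these 5 comparisons.

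A clock component was taken as the leading principal component of 16 clock genes in the 55 mice (57.3% of their variance, in SD units and signed so that it was higher where Dbp was higher). It had a mean of -0.60 ± 0.58 (SD) in the 9 PP mice, 0.55 ± 0.80 in the 8 PL mice and 0.49 ± 0.80 in the 10 LL mice. The means with GKA were -0.88 ± 1.34, 0.56 ± 0.52 and 0.04 ± 0.73. PP had the lowest mean in both arms, within overlapping ranges, and differences of the component between groups were not tested.

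After the group means were subtracted, 5 of the 10 genes followed this component across the 55 mice. For each, both adjusted p were below the threshold over the 55 correlations computed. The share of all genes that did so is not given here, so the count cannot be read as particular to these genes. Igfbp1 had a Pearson r of -0.60 (Spearman rho -0.62, permutation p 1e-05 for both, the smallest these permutations can give, adjusted 0.000275 and 0.00055), and r was negative in all 6 groups and -0.62 without the 2 mice of most extreme Igfbp1. Irs1 had r = -0.50 and rho = -0.56 (permutation p 9e-05 and 3e-05, adjusted 0.00124 and 0.00055, r without 2 mice -0.48). On the positive side were Akt2 (r = 0.44, rho = 0.46, permutation p 0.00095 and 0.00047, adjusted 0.00853 and 0.00568, r without 2 mice 0.35) and Foxo1 (r = 0.43, rho = 0.45, permutation p 0.00123 and 0.00053, adjusted 0.00853 and 0.00568, r without 2 mice 0.41). Foxo3 had r = 0.42 and rho = 0.35 (permutation p 0.00163 and 0.00796, adjusted 0.00996 and 0.0365, r without 2 mice 0.36).

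**Figure D3:**
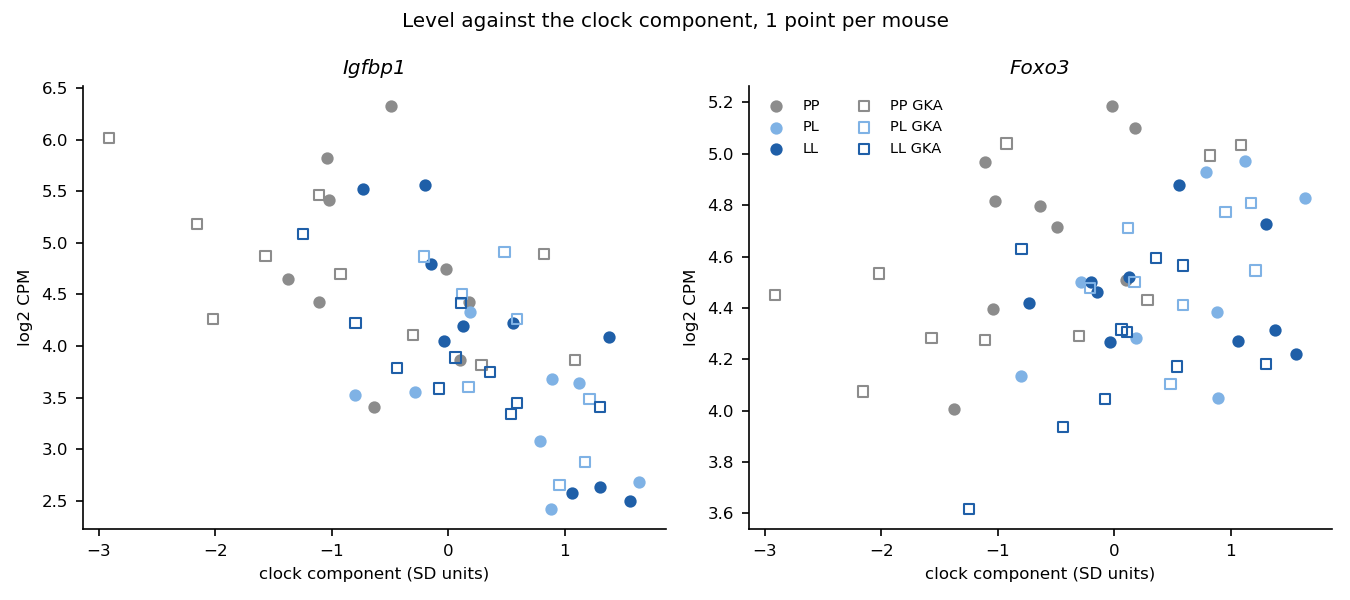
Log2 CPM of Igfbp1 (left) and Foxo3 (right) against the clock component in SD units, 1 point per mouse, filled without GKA and open with GKA, coloured by genotype. With group means subtracted, r was -0.60 for Igfbp1 and 0.42 for Foxo3.

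With the clock component as a covariate in the fit, the genotype values of these genes moved in different directions. The log2 fold change of Igfbp1 by LL genotype without GKA turned from -0.66 to 0.13 (adjusted p 0.911), and that by PL genotype without GKA went from -1.60 to -1.16 (adjusted p 0.341). By LL genotype with GKA it went from -0.89 to -0.48 (adjusted p 0.443), by PL genotype with GKA from -0.79 to -0.14 (adjusted p 0.984), and per copy of 446L from -0.39 to -0.12 (adjusted p 0.717). That of Foxo3 by PL genotype without GKA went from -0.21 to -0.54 (adjusted p 0.236), and per copy of 446L from -0.15 to -0.22, and the last was then called (adjusted p 0.0128). That of Foxo1 by LL genotype without GKA turned from 0.15 to -0.30 (adjusted p 0.322), and that of Akt2 went from 0.17 to 0.09 (adjusted p 0.702). Irs1 moved most in that comparison, from 0.00 to 0.82 (edgeR unadjusted p 0.00939, adjusted 0.209), which lies outside the interval of its fit without the covariate, and per copy of 446L it went from 0.04 to 0.22 (adjusted p 0.381). PP had the lowest mean of the component in both arms, so this covariate cannot tell the part of the clock from that of genotype. The part of the clock in these results was thus not tested, and time of death is not in the labels.

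The 10 genes were also compared with each other across mice within groups. Of 45 pairs, 7 had both adjusted p below the threshold, 5 of them positive. The share among pairs of all genes is not given here. The receptor correlated with each of its adaptors: Insr with Irs1 had r = 0.61 and rho = 0.61 (permutation p 1e-05 and 2e-05, adjusted 0.000275 and 0.00055, r without 2 mice 0.63, same sign in 6 of 6 groups). Insr with Irs2 had r = 0.53 and rho = 0.45 (permutation p 6e-05 and 0.00062, adjusted 0.0011 and 0.00568, r without 2 mice 0.41, same sign in 6 of 6 groups, with r from 0.003 to 0.85). These were the 2 pairs that stayed past both thresholds when the clock component was also regressed out, with r of 0.57 and 0.51. The adaptors Irs1 and Irs2 did not pass with each other (r = 0.31, rho = 0.29, permutation p 0.0203 and 0.0322, adjusted 0.0696 and 0.0884).

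Irs1 with Akt2 had r = -0.43 and rho = -0.44 (permutation p 0.00108 and 0.00101, adjusted 0.00853 and 0.00794, r without 2 mice -0.40). Irs1 with Igfbp1 had r = 0.37 and rho = 0.36 (permutation p 0.0058 and 0.00625, adjusted 0.029 and 0.0336, r without 2 mice 0.30), and r was 0.10 with the clock component regressed out. The other 3 pairs held Socs2, which had low counts in many mice: r was 0.43 with Irs2 (rho 0.39, permutation p 0.00124 and 0.00361, adjusted 0.00853 and 0.0221), 0.37 with Pik3r1 (rho 0.40, permutation p 0.00555 and 0.00263, adjusted 0.029 and 0.0181) and -0.35 with Foxo3 (rho -0.34, permutation p 0.009 and 0.0129, adjusted 0.0413 and 0.0474). Without the 2 most extreme mice r was 0.32, 0.38 and -0.34 for these pairs, and 5 of 6 groups had the same sign for each. Foxo1 correlated with neither Igfbp1 (r = -0.26) nor Irs2 (r = 0.09) past the thresholds.

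**Figure D4:**
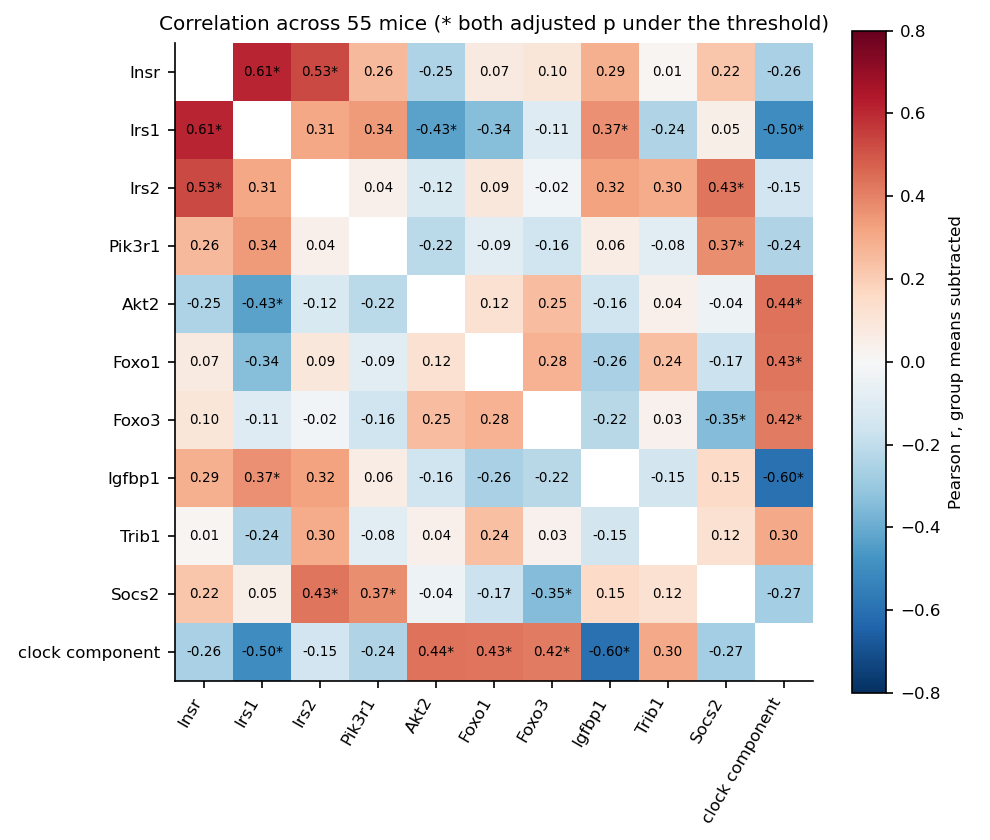
Pearson r between the 10 genes and with the clock component over the 55 mice after subtraction of group means; red is positive, blue negative, and a star marks pairs with both adjusted p below the threshold. Insr with Irs1 (0.61) and Igfbp1 with the clock component (-0.60) were the strongest in either direction.

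By likeness of group-centred log2 CPM over the 55 mice, among 11476 other genes, the genes most like Igfbp1 were Irf2bp2 (r = 0.73), Chka (0.66) and Nedd4l (0.64). Those most like Irs2 were Alcam, Plxnb2 and Zfp598 (each 0.64). For Insr they were Marf1 (0.87), Lrp6 (0.85) and Lrp1 (0.84), and for Foxo1 Cep85 (0.70), Stard7 (0.68) and Etnk2 (0.64). They are named as the leading values of a search and were not tested.

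The other genes of the pathway were taken as 7 lists with 86 genes between them. For LL against PP without GKA, 0 of 78 genes tested were called (0.0854% of all genes), and 13 passed unadjusted (11.8% of all genes). With GKA 1 of 77 was called (0.239%), and 17 passed unadjusted (10.4%). Per copy of 446L, 6 of 80 were called (3.53% of all genes) and 22 passed unadjusted (15.5%). The called genes were, among others, Insig1, Acly, Gsk3b and Ide (lower) and G6pc1 (higher).

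**Figure D5:**
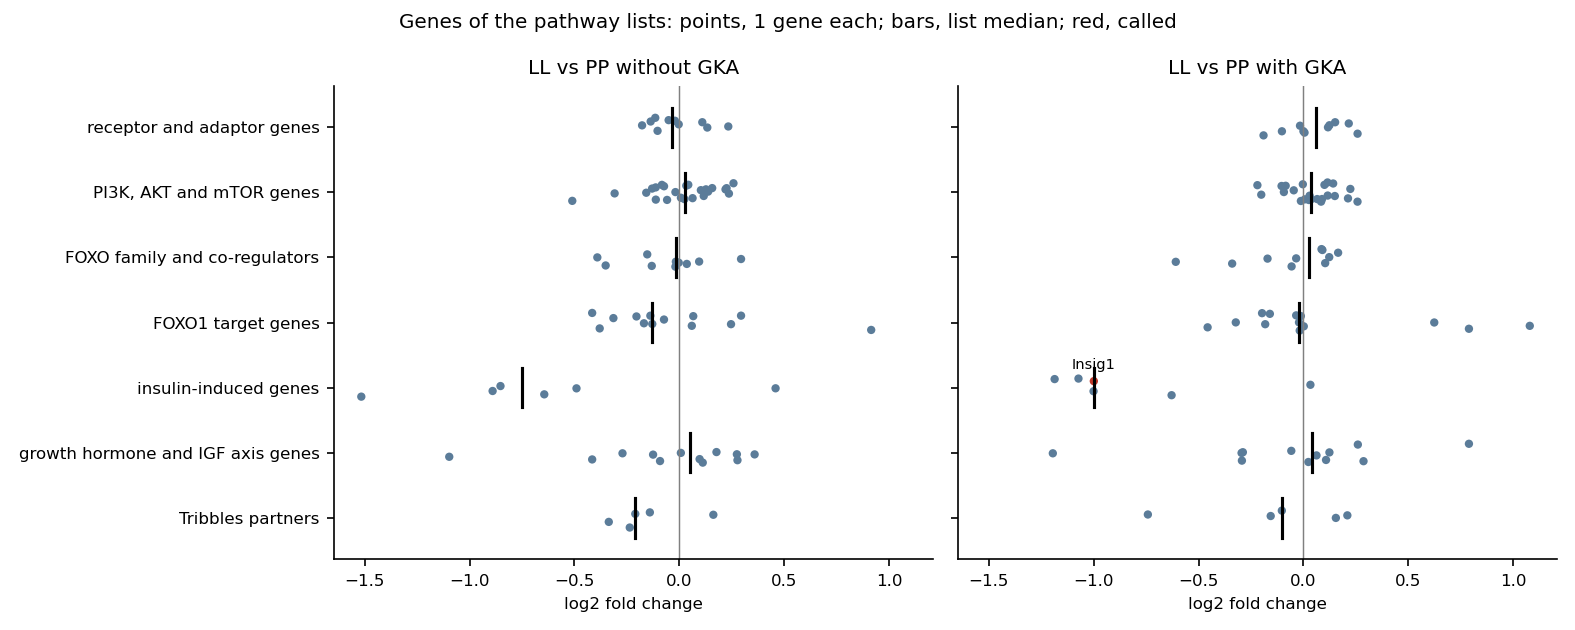
Log2 fold change (horizontal axis) of the genes of each pathway list for LL against PP without GKA (left) and with GKA (right), 1 point per gene, with the list median as a bar and called genes in red. The insulin-induced list had medians of -0.75 and -1.0, and Insig1 with GKA was the 1 gene called.

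Of the insulin-induced genes, 6 of 6 were tested, and 3 were called lower per copy of 446L (3.53% of all genes in either direction), among them Insig1 and Acly. Insig1, an anchor of the sterol sensor in the endoplasmic reticulum, had 239.7 ± 58.8 CPM in the 9 PP mice, 198 ± 102 in the 8 PL mice and 133 ± 64.4 in the 10 LL mice without GKA (SD). It was called for LL against PP with GKA, where the mean fell from 223 ± 50.8 CPM in the 10 PP mice to 111 ± 27.1 CPM in the 10 LL mice, a log2 fold change of -0.999 (SE 0.14, edgeR adjusted p 0.00378). Without GKA, Insig1 had -0.85 for LL against PP (SE 0.23, edgeR adjusted p 0.112) and was not called. The change per copy was -0.46 (SE 0.09, adjusted p 0.00116) for Insig1 and -0.49 (SE 0.12, adjusted p 0.00861) for Acly, the enzyme that makes cytosolic acetyl-CoA. The median of the list for LL against PP was -0.75 without GKA and -1.0 with GKA, against 0.01 and 0.00 for all genes. Srebf1, a regulator of lipid synthesis, lay on the other side, at 0.46 without GKA and 0.03 with GKA, was not called, and is named here after its values were seen.

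Of the FOXO1 target genes, 13 of 13 were tested. G6pc1, the catalytic subunit of glucose-6-phosphatase, was called higher per copy of 446L (0.50, SE 0.10, edgeR adjusted p 0.00205) and for LL against PL without GKA. There it had 149 ± 46.7 CPM in PL (n = 8) and 401 ± 117 in LL (n = 10), ranges that did not overlap, a log2 fold change of 1.42 (SE 0.20, adjusted p 0.00821). How many of all genes had ranges apart is not given here. The other 12 were not called in any comparison, and the median of the list for LL against PP was -0.13 without GKA and -0.02 with GKA. Cited2 had a log2 fold change of -0.38 (adjusted p 0.279) without GKA and Pck1, phosphoenolpyruvate carboxykinase, 0.62 (adjusted p 0.402) with GKA. For LL against PP, G6pc1 had 0.92 without GKA and 1.08 with GKA (edgeR adjusted p 0.112 and 0.13), neither called. The study, which used DESeq2, reported G6pc1 (there G6pc) as up-regulated and Insig1 as repressed by LL genotype on HFHSD. DESeq2 values of G6pc1 and Insig1 are not given here.

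Of the receptor and adaptor genes, 11 of 13 were tested over all groups, and Ide, the insulin-degrading enzyme, was called lower per copy (-0.08, SE 0.02, edgeR adjusted p 0.0146). For LL against PP, Ide had -0.11 without GKA (adjusted p 0.58) and -0.19 with GKA (SE 0.06, adjusted p 0.197). Gab1 had 0.23 without GKA (adjusted p 0.571), and Ptpn2, a phosphatase, 0.26 with GKA (adjusted p 0.605). Of the PI3K, AKT and mTOR genes, 25 of 26 were tested, and Gsk3b, the kinase of glycogen synthase, was called lower per copy (-0.13, SE 0.04, adjusted p 0.048). Deptor had 0.24 without GKA (adjusted p 0.345), and Inppl1 and Rptor had 0.22 and -0.22 with GKA (adjusted p 0.424 and 0.437).

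No gene of the other 3 lists was called in any comparison. Of the FOXO family and co-regulators, 10 of 12 were tested, and the leading values for LL against PP were -0.39 for Foxa1 (adjusted p 0.298) and 0.29 for Ppargc1a (adjusted p 0.476) without GKA and -0.61 for Foxa2 (adjusted p 0.236) with GKA. Of the growth hormone and IGF axis genes, 12 of 13 were tested. Socs3 had -1.10 (adjusted p 0.32) and Igfals 0.36 (adjusted p 0.404) without GKA, and Stat5b had -0.29 (adjusted p 0.391) and Cish -1.19 (adjusted p 0.407) with GKA. Of the 5 partners of the Tribbles proteins, Cebpb was closest to a call, with -0.74 (SE 0.16, edgeR adjusted p 0.0535) for LL against PP with GKA, and all 10 LL mice were below the PP mean. Cop1 had -0.21 without GKA (adjusted p 0.377) and 0.21 with GKA (adjusted p 0.464), and Cebpa 0.16 without GKA (adjusted p 0.499).

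The deposited values are per transcript, and the reads of Foxo1, Irs1, Irs2 and Igfbp1 all fell on a single annotated transcript. In 3 further genes a single transcript held nearly all reads over the 55 livers: Insr-201 98.0 ± 1.37% (SD), Foxo3-203 98.8 ± 1.10% and Trib1-201 97.4 ± 1.83%. For Pik3r1, the transcript Pik3r1-202, which spans the whole gene (101817071 to 101904725), held 90.4 ± 9.59%, and the shorter Pik3r1-201 (101817071 to 101829138) held 7.44 ± 8.84%. The share of Pik3r1-201 was 2.75 ± 4.74% in the PP mice, 7.37 ± 6.86% in the PL mice and 10.2 ± 9.18% in the LL mice, and with GKA 5.02 ± 8.19%, 5.32 ± 8.83% and 13.1 ± 11.1% in the same order (SD). These differences were not tested and were of the size of the SD.

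Transcripts of the other genes could not be separated reliably. Akt2-201 held 80.4 ± 14.0% of the Akt2 reads, but from 0% to 96.4% in single mice, and in 1 liver Akt2-204, with the same start and end, held 91.4%. The Socs2 reads were spread over Socs2-214 (40.3 ± 43.9%), Socs2-201 (32.6 ± 42.4%) and Socs2-213 (12.5 ± 29.3%), each of which took between 0% and 100% in single mice. In TPM the share of the main transcript was lower, at 66.7% for Insr-201, 58.2% for Pik3r1-202 and 47.8% for Akt2-201, since short transcripts weigh more on that scale. The exons of Insr, Irs1, Irs2, Foxo1, Foxo3, Trib1 and Socs2 overlap genes annotated on the opposite strand, and whether reads were assigned by strand is not given in the sources used here.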

How the data were processed

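Liver RNA (integrity number above 6) of 56 male mice was measured by RNA-sequencing. The authors checked reads with FastQC, trimmed none, and ran Salmon 1.4.0 on GENCODE M26 (GRCm39). Each file holds, per transcript of 1 mouse, the deposited estimated count (not normalised) and, per the file headers, TPM, scaled by Salmon for effective length. Replicates were not pooled.

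Transcripts were matched by identifier to GENCODE vM39 (98.8%, holding at least 99.8% of reads), and the estimated counts of the transcripts of a gene were added up and rounded (52230 genes). Counts were tested with edgeR 4.0.16 in R 4.3.3 (quasi-likelihood test, TMM, filterByExpr, Benjamini-Hochberg over all genes tested): fits of the 2 groups for 9 pairs, and of all groups, without PP mouse 7, for any difference, GKA (with genotype) and number of 446L copies (0, 1 or 2, with GKA); the interaction used PP and LL. The removal of PP mouse 7 and the thresholds for DEGs followed the study, with edgeR in place of DESeq2, which was an alternative (1.42.0). The script was tested on simulated data. CPM used TMM scaling, and log2 CPM a prior count of 2. Correlations were tested by permutation of mice (100000 resamples, two-sided, SciPy 1.17.1). The most alike pairs of mice within a group differed by a chi-square of 11.3 per degree of freedom, so no library appeared under 2 names within a group. Values for pairs of mice from different groups are not given here. Mice are taken as separate animals from their numbers.

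The 10 genes and the lists were chosen with earlier results of these data known. Named genes were the 10, genes of the 7 pathway lists called in any comparison (1 is not reported here), the 2 genes of each list with the smallest p between LL and PP, in each GKA arm, and the 3 genes most like Igfbp1, Irs2, Insr and Foxo1 among those with an established symbol. Alternatives were DESeq2, RLE scaling, no filter on low counts, the clock component as a covariate, all 6 groups in 1 fit, PP mouse 7 kept, and each mouse left out in turn for LL against PP. Leaving out each mouse for PL against PP without GKA was chosen after seeing the data. Promoters came from RefSeq (GRCm38.p6), whose coordinates are not those of the GRCm39 gene positions.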

Additional observations from a re-analysis of the deposited data

Results flagged for a closer look

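Of 60 sets tested (10 genes in 6 groups, on log2 CPM), 1 held a mouse that lay apart from the rest of its group by the gap to its nearest neighbour relative to the group's range, where chance marks about 1 in 20. Pik3r1 in LL mouse 51 with GKA was at 27.1 CPM, against 37.4 CPM in the next mouse and 50.4 CPM in the highest of the group. The gap was 0.519 of the range.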

How the results depend on the processing

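Of the 68 counts of genes called among the 10 under alternatives other than leaving out a mouse, 62 stayed at 0. The count was 1 for PL against PP without GKA (Igfbp1) and for any difference among the 6 groups (Igfbp1), each by DESeq2 and with PP mouse 7 kept, and 1 for the number of 446L copies (Foxo3) by DESeq2 (adjusted p 0.049987) and with the clock component as a covariate. Leaving out 1 mouse at a time gave 0 for LL against PP in both GKA arms, and between 0 and 1 for PL against PP without GKA. The log2 fold change of Igfbp1 by LL genotype without GKA reversed to 0.13 with the clock component, and the cause was not tested. PP mouse 7 is not in the comparisons of PL and LL with PP under GKA, so that keeping it changed nothing there. When the clock component was regressed out, 2 of 7 pairs of genes stayed past both thresholds, and 6 with PP mouse 7 kept. Among other pathway genes, G6pc1 for LL against PL lost its call with all 6 groups in 1 fit (adjusted p 0.107), Acly, Gsk3b and Ide lost theirs per copy with the clock component (adjusted p 0.0853, 0.287 and 0.199), and Gsk3b also without a filter on low counts (0.0955).

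Over all genes, DESeq2 called more genes than edgeR: 109 against 9 for LL against PP without GKA, 71 against 16 for PL against PP, 24 against 1 for LL against PL, and with GKA 92 against 25, 31 against 0 and 39 against 0. It called 403 against 216 for any difference, and 1 and 6 against 0 for GKA in PL and LL, and 1 against 0 for GKA over the genotypes and for the interaction. With the clock component edgeR called 0, 6 and 9 without GKA in the order above and 17 for LL against PP with GKA, 111 for any difference and 113 against 405 per copy. With all 6 groups in 1 fit it called 65 for LL against PP, 0 for LL against PL, with GKA 45, 21 and 21, and 1 for GKA in PP. For LL against PP without GKA, RLE scaling gave 0, no filter on low counts 1 and PP mouse 7 kept 26, and that mouse gave 33 for PL against PP. GKA over the genotypes gave 4 with no filter. Leaving out 1 mouse gave between 0 (LL mouse 37) and 85 (LL mouse 42) for LL against PP without GKA, between 12 (PP mouse 11) and 47 (PP mouse 13) with GKA and between 5 (PL mouse 25) and 31 (PP mouse 6) for PL against PP without GKA. No paired analysis was possible because each mouse has a number of its own and no number is shared between groups. With medians of 33, 50 and 54 reads, Socs2, Irs2 and Irs1 were limited by depth as well as by the spread between mice.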
